A study of Drosophila melanogaster with 3 samples.

Results

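The genes examined were 10 listed genes of Drosophila mesoderm and muscle, out of 13945 protein-coding genes of the release 6 annotation, and all 10 were matched by symbol. The 6 fate factors were twi, sna, tin, bap, Mef2 and nau. The 2 muscle structure genes were sls and Mhc, and htl and how belonged to neither group. The question was where the nuclear receptor Hr51 was found on chromatin at these genes. The data came from chromatin immunoprecipitation followed by sequencing (ChIP-seq) on whole embryos, mixed in sex and aged 0 to 24 h, of a transgenic strain that stably expressed Hr51 with GFP at its C-terminus. One field of the labels says that GFP was precipitated with an anti-GFP antibody, and another gives the antibody as Hr51. The 3 samples were biological replicates of 1 group, with no control library among them, so no treated and untreated groups were compared. In whole embryos, weak occupancy in many cells and strong occupancy in few cells cannot be told apart, and the wide age range covers both mesoderm formation and muscle assembly.

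Mesoderm in the fly forms on the ventral side of the embryo, where the transcription factors twist (twi) and snail (sna) are expressed before gastrulation. The homeodomain factor tinman (tin) then acts in dorsal mesoderm and heart, bagpipe (bap) in visceral mesoderm, and Mef2 and nautilus (nau, the fly MyoD relative) in muscle differentiation. The FGF receptor heartless (htl) guides the spreading of mesoderm cells, held out wings (how) is an RNA-binding protein of muscle and tendon, sallimus (sls) is a titin-like spring of the sarcomere, and Mhc is the muscle myosin heavy chain. Hr51, also called unfulfilled, belongs to the NR2E receptors and is best known from mushroom body neurons of the brain.

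Each gene was examined over its annotated span and 5 kb to either side, called its window. Peak summits were taken from an optimal list of 3496 peaks filtered by the irreproducible discovery rate (IDR), from a pooled list of 30000 peaks and from 30000 peaks of each replicate. The pooled and replicate lists include background by design. Each replicate's 3496 peaks of highest signal are called its top list and its 30000 peaks its relaxed list. The authors gave each peak a signal, which serves here only to rank peaks within a list, with rank 1 the highest.

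An IDR summit lay in the window of 6 of the 10 genes, which were tin, Mef2, nau, htl, how and sls. Among all protein-coding genes 44.6% had an IDR summit in their window. An IDR summit lay within 500 bp of a transcription start site (TSS) of 4 of the 10 genes, tin, htl, how and sls, beside 19.1% of all genes. The windows of twi, sna, bap and Mhc held no IDR summit. The top list of replicate 1 placed a summit in the windows of 6 of the genes, that of replicate 2 in 4 and that of replicate 3 in 7 (5.67 ± 1.53, SD, n = 3), where the shares of all genes were 44.9%, 43.6% and 42.7%. At promoters the same lists gave 3, 2 and 6 genes (3.67 ± 2.08, SD, n = 3), where the shares of all genes were 19.3%, 18.7% and 18.3%. Replicate 3 thus gave the highest count both in windows and at promoters. In the pooled list 7 of the 10 promoters held a summit, beside 54.2% of all genes.

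The windows ranged from 11.6 kb at bap to 85.9 kb at sls, and longer windows hold a summit more often. With all genes split by window length into 4 classes of about equal size, 30.5% of those in the shortest class had an IDR summit, and 42.6%, 49.1% and 56.2% in the next ones. The longest class held 7 of the 10 genes, twi, Mef2, nau, htl, how, sls and Mhc, and 5 of these had an IDR summit. The third class held tin, which had one, and the second held sna and bap, which had none. The promoter share also rose with window length. From the shortest class to the longest, 9.36%, 17.1%, 23.7% and 26.4% of genes had an IDR summit within 500 bp of a TSS. Of the genes with a promoter summit, htl, how and sls were in the longest class and tin in the third. Per 10 kb of window the median of the 10 genes in the pooled list was 3.16 summits, and that of all genes was 3.25.

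**Figure D1:**
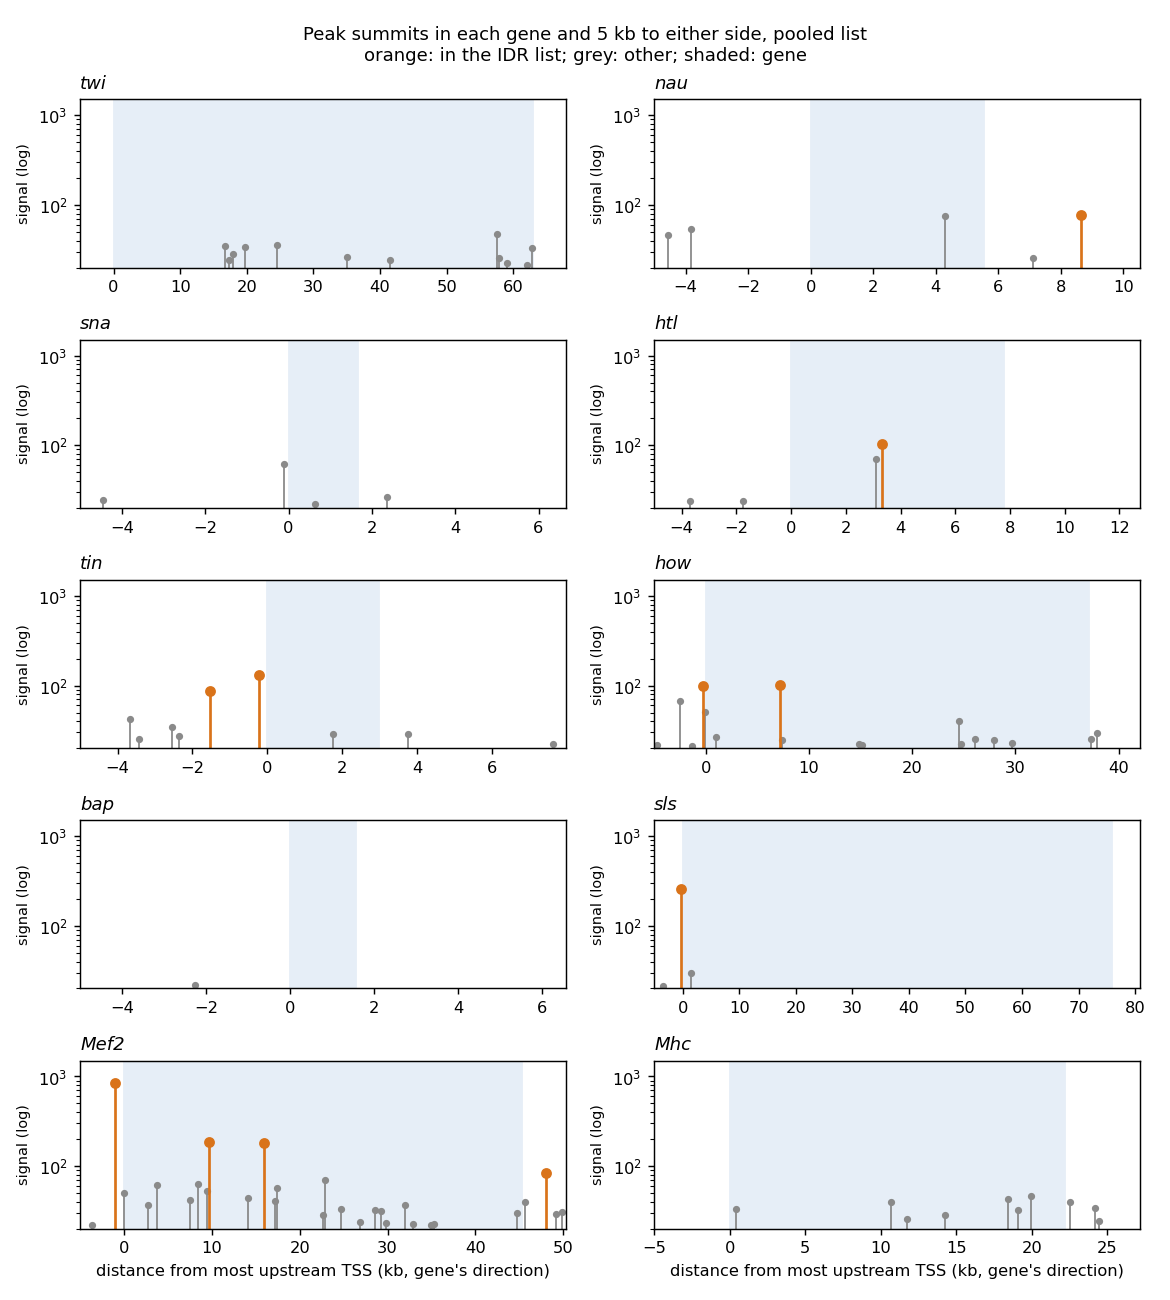
Pooled summits in the window of each gene, with distance from the most upstream TSS in kb on the horizontal axis, in the direction of transcription, and the authors' signal on a log vertical axis. Orange points are summits of the IDR list, grey points are other pooled summits and the shaded band is the gene. The orange points of tin and sls stand upstream of the gene, that of htl lies 3318 bp into the gene, at its inner TSS, and how has one upstream and one 7178 bp into the gene. Mef2 holds 4 of the 11, and sls has no pooled summit over most of its length.

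The cardiac and dorsal mesoderm factor tin (chr3R:21378977-21381970, plus strand, dm6) had 2 IDR summits in its window, both upstream of the gene. The summit nearer to tin lay 210 bp upstream of its only TSS, with a signal of 130 and rank 1467 in the IDR list. The strongest peak within 150 bp ranked 1175 in replicate 1, 8300 in replicate 2 and 847 in replicate 3. Replicates 1 and 3 thus had it in their top lists and replicate 2 did not. The other summit lay 1539 bp upstream of tin and 37 bp from a minus-strand TSS of mod(mdg4), a gene of a chromatin and insulator protein, with a signal of 87.6 and rank 2878. It ranked 5847, 2531 and 16865 in replicates 1, 2 and 3, so that here replicate 2 alone had it in its top list. The replicates that ranked the tin promoter high were those that ranked the mod(mdg4) promoter low. The sequence around both summits is shown because they share the stretch between the diverging starts of tin and mod(mdg4), and each holds a different searched motif. Capitals mark CATATG, an E-box bound by Twist, in the sequence nearer to tin, and TATCGATA, the site of the boundary and promoter factors DREF and BEAF, in the sequence nearer to mod(mdg4). Both are printed from the plus strand, with 14 UTR bases of the second left out.
tin promoter, chr3R:21378717-21378817: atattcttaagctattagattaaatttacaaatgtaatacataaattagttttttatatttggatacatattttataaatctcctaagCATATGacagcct
mod(mdg4) side, chr3R:21377402-21377488: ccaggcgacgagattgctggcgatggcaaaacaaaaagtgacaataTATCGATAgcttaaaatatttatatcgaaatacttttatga
Of all IDR summits, 3.95% held CATATG and 3.38% held TATCGATA within 50 bp on either strand. A match describes the letters and does not show binding by the factor.

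The visceral mesoderm factor bap (chr3R:21388880-21390449, plus strand) lies next to tin, and their windows overlapped by 3091 bp, a stretch with 1 pooled and 0 IDR summits. No IDR summit and no top-list summit of a replicate fell in the bap window. Its single pooled summit, 2278 bp upstream of the TSS, ranked 27799 of the pooled list, and no replicate list had a summit within 150 bp of it. The relaxed lists held 0, 3 and 2 summits in this window in replicates 1, 2 and 3. In pooled summits per 10 kb the tin window had 6.93, above 92.6% of all genes, and the bap window 0.864, above 16.1%. Of the 9 pooled summits in the tin window, however, 5 were nearest to a TSS of mod(mdg4) or of a neighbouring pre-mod(mdg4) gene, 3 to that of tin, and the shared one to that of bap.

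The mesoderm repressor sna (chr2L:15476593-15478260, minus strand) had no IDR summit, and the nearest one outside its window lay 20.8 kb upstream, 116 bp from a TSS of lace. Its strongest pooled summit, however, sat at the promoter, 98 bp upstream of the TSS, with a signal of 61.4 and rank 4916. That peak ranked 10727 in replicate 1, 9804 in replicate 2 and 2210 in replicate 3. It was in the relaxed lists of all 3 replicates and in the top list of replicate 3 alone. The sna promoter therefore lay outside the IDR list, whose last peak had a signal of 77.3.

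The muscle factor nau (chr3R:23712814-23718357, minus strand) had 1 IDR summit, which lay beyond the 3′ end of the gene, 8652 bp from the nau TSS and 453 bp from a TSS of CG10301. With a signal of 77.7 and rank 3466, it was among the last of the IDR list, and it ranked 4019, 6136 and 2366 in replicates 1, 2 and 3. Only replicate 3 had it in its top list. A summit in a nau intron, 4293 bp from the TSS, fell just short of the IDR list with a pooled rank of 3683, and ranked 3338, 7827 and 2974 in the replicates. In replicates 1 and 3 the intronic summit was thus in the top list. No list, pooled or of a replicate, had a summit within 500 bp of the nau TSS.

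The earliest mesoderm determinant twi (chr2R:22985374-23048325, plus strand) also had no IDR summit in its window, and no top-list summit in any of the 3 replicates. The nearest one outside the window lay 16.0 kb downstream, 87 bp from a TSS of CG9890. The gene is annotated over 63.0 kb because 1 of its 3 transcripts starts far upstream. The other transcripts span 2.22 and 2.00 kb, and with 5 kb to either side each held 5 of the 12 pooled summits and 0 IDR summits. Its strongest pooled summit, of rank 7240, lay in the long intron, 8 bp from a TSS of CG42741, and replicate 3 had a summit 3 bp from it, at rank 6213. The nearest summits of replicates 1 and 2 lay 173 and 155 bp away, just past the 150 bp limit. They matched a weaker pooled summit 200 bp from the same TSS, at rank 17466 in replicate 1 and 5461 in replicate 2. Each relaxed list thus held a summit near this start, but these lists include background. The deposited −log10 q of the weaker summit was 0.164 in the pooled list, and its matches in replicates 1 and 2 had 0.335 and 1.3. For the stronger summit it was 1.25, with 1.59 in replicate 3. The lowest value in the IDR list was 3.0.

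Mef2 (chr2R:9913496-9958858, minus strand), the factor that activates muscle structure genes, held more summits than any of the other 9 genes in the IDR, pooled and relaxed lists, in a window of 55.4 kb. It had 4 IDR and 29 pooled summits, and its top-list counts were 3, 3 and 7 in replicates 1, 2 and 3. The strongest peak at the 10 genes, of signal 856 and rank 17, lay 1040 bp upstream of the Mef2 start, but within the gene Pal1 and 166 bp from a TSS of Pdrg1. It ranked 18, 19 and 24 in the replicates, and each thus placed it among its very strongest peaks. A Pal1 start was about as near: the replicate 1 summit lay closest to a TSS of Pal1, at 170 bp. Replicate 3 had a further top-list summit, of rank 398, 2 bp from a Pal1 TSS. An intronic summit 4434 bp upstream of the nearest Mef2 TSS had a signal of 184 and rank 758, and it ranked 820, 744 and 1182 in the replicates. A summit in a Mef2 5′ UTR, 1799 bp from a TSS, had a signal of 183 and rank 766. It ranked 369 in replicate 1, 872 in replicate 2 and 3538 in replicate 3, which was just outside the top list. The fourth, of rank 3100, lay 79 bp from a TSS of Etf-QO beyond the 3′ end of Mef2. Within Mef2 itself, therefore, 2 IDR summits were found and neither was within 500 bp of a TSS. In replicate 3 a summit 37 bp from a Mef2 TSS reached rank 2636, while the pooled peak there ranked 6742. In pooled summits per 10 kb Mef2 had 5.24, above 78.1% of all genes.

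Over the 6 fate factors, then, IDR summits lay in 3 windows and a promoter summit only at tin. In the relaxed lists Mef2 had 3.97, 4.34 and 6.14 summits per 10 kb in the 3 replicates, and tin had 4.62, 7.70 and 4.62. These values overlap, and both genes were above the range of twi, which had 2.06, 2.47 and 1.51. The values of sna (3.43, 1.71 and 3.43) and bap (0, 2.59 and 1.73) overlap those of twi. For nau the values were 4.50, 3.86 and 3.22, all above the medians of all genes, which were 3.11, 3.06 and 3.18. In the pooled list, however, nau had 3.22 per 10 kb, just below the median of 3.25 of all genes.

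**Figure D2:**
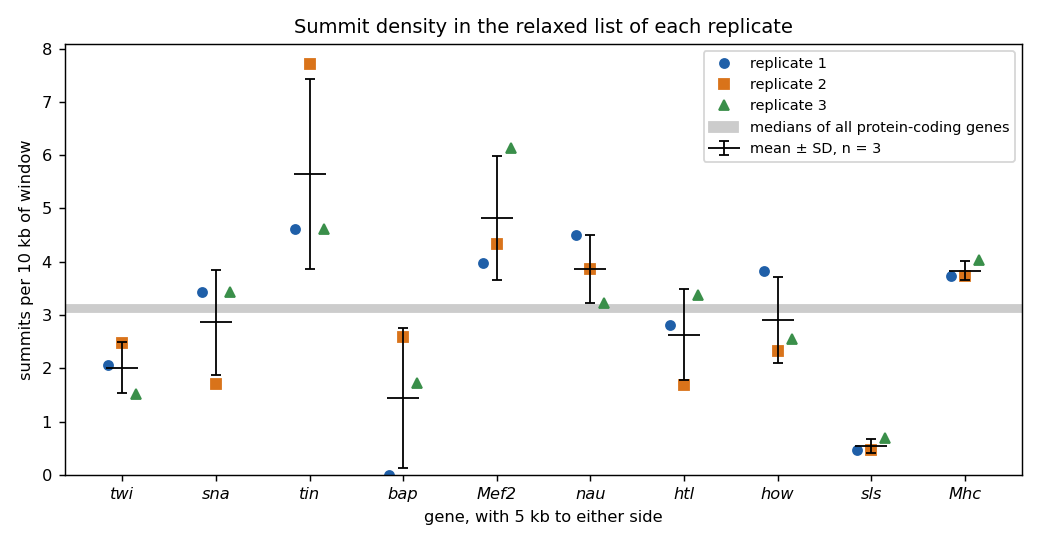
Summits per 10 kb of window in the relaxed list of each replicate, for each gene on the horizontal axis; symbols are replicates, bars are the mean ± SD of 3 replicates and the grey band spans the medians of all protein-coding genes. The 3 values of sls lie between 0.465 and 0.698, below those of the other genes except the 0 of bap in replicate 1, while tin reaches 7.70.

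The FGF receptor gene htl (chr3R:18045216-18052984, minus strand) had 1 IDR summit, 300 bp upstream of its inner TSS and within an intron of the gene. Its signal was 104 and its rank 2177, the median rank of the 11 summits. The strongest peak within 150 bp ranked 2885, 6039 and 1497 in replicates 1, 2 and 3, so replicate 2 did not have it in its top list. A second pooled summit, of rank 4020, lay 521 bp upstream of the same TSS, and in replicate 3 the same peak was within 150 bp of both. The sequence at the IDR summit is shown because it is the only IDR peak in the htl window and held none of the 9 searched motifs.
htl inner promoter, chr3R:18049616-18049716: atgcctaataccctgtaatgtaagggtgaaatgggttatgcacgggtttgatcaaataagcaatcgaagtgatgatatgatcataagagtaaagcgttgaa

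The RNA-binding protein gene how (chr3R:22042191-22079321, plus strand) had 2 IDR summits. One lay 298 bp upstream of the TSS, with a signal of 98.3 and rank 2390, and it ranked 4441, 2757 and 1380 in replicates 1, 2 and 3. The other lay in an intron 7178 bp from the TSS, at rank 2266, and it ranked 1891, 3122 and 2918. The intronic summit was thus in all 3 top lists and the promoter summit in those of replicates 2 and 3. The promoter sequence is shown because it is the only one of the 11 that held AAGTCA, the core site of NR2E receptors such as Hr51. Capitals mark that site and matches of GAGAG, a motif bound by Trithorax-like, and 1 of these follows the receptor site directly.
how promoter, chr3R:22041843-22041943: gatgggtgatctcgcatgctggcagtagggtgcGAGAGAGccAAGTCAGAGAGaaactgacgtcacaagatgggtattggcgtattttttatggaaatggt
AAGTCA was held by 4.81% of all IDR summits, so 1 match among 11 summits is a small count to set beside that share. GAGAG was held by 2 of the 11, the how promoter and the summit at Etf-QO, and by 11.6% of all IDR summits.

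The titin-like gene sls (chr3L:2039681-2115611, minus strand) had the second strongest peak of the 10 genes. It lay 228 bp upstream of the TSS, with a signal of 255 and rank 374, and it ranked 304, 400 and 569 in replicates 1, 2 and 3. All 3 replicates thus had it well inside their top lists, at summits 12 to 23 bp from the IDR summit. It is shown because it is the strongest peak nearest to the TSS of one of the 10 genes, and it held none of the 9 motifs.
sls promoter, chr3L:2115789-2115889: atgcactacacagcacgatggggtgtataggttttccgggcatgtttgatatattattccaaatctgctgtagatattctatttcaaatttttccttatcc
The rest of sls was nearly empty. Its 85.9 kb window held 3 pooled summits, 0.349 per 10 kb, above 11.3% of all genes and above 5.02% of those in its class of window length. Coding sequence makes up 55.5 kb, or 73.0%, of the gene. Within it the relaxed lists held 1, 2 and 2 summits, or 0.301 ± 0.104 per 10 kb of coding sequence (SD, n = 3). Over the coding sequence of all protein-coding genes the same lists held 3.00 ± 0.525 per 10 kb, with values of 2.40, 3.36 and 3.23, so sls was below the genome in each replicate. In a comparison chosen after the sls value was seen, the other genes with more than 50 kb of coding sequence were also low, at 0.581 pooled summits per 10 kb of coding sequence for dpy and 0.456 for Msp300, while all coding sequence had 3.10.

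The myosin gene Mhc (chr2L:16766566-16788766, plus strand) showed the reverse arrangement. It had no IDR summit and no top-list summit in any of the 3 replicates, and the nearest IDR summit outside its window lay 23.4 kb upstream, 76 bp from a TSS of LSm7. Its window held 10 pooled summits, and its relaxed lists held 12, 12 and 13 (12.3 ± 0.577, SD, n = 3), or 3.83 ± 0.179 per 10 kb. In the relaxed lists the values of 3.73, 3.73 and 4.04 per 10 kb were above the medians of all genes in the 3 replicates. In the pooled list Mhc had 3.11 per 10 kb, below the median of 3.25 and above 48.3% of all genes. The strongest pooled summit lay in a coding exon, with a signal of 46.3 and rank 7622, and it ranked 12474, 26722 and 10408 in the replicates. Coding sequence of 7.28 kb held 4 pooled summits and 3, 7 and 6 relaxed ones, or 7.33 ± 2.86 per 10 kb of coding sequence (SD, n = 3). The pooled and relaxed lists include background, so these counts do not by themselves show occupancy. A pooled summit 53 bp from an Mhc TSS, of rank 13517, was in the relaxed lists of replicates 1 and 3.

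Across the 10 genes, all 11 IDR summits were in the relaxed lists of all 3 replicates. Of the 11, 4 were in the top lists of all 3 replicates, 4 in those of 2 and 3 in that of 1. Over the whole list 52.6% were in all 3 top lists. The IDR list was made from these replicates, so this agreement is not independent of it. The 4 found in all 3 were those near Pdrg1 and Pal1 upstream of Mef2, in a Mef2 intron, in a how intron and at the sls promoter. For 7 of the 11 summits the nearest TSS was that of the listed gene, and for the other 4 it was that of mod(mdg4), Pdrg1, Etf-QO or CG10301. By position 8 of the 11 lay within 500 bp of some TSS, 2 in introns and 1 in a 5′ UTR. For the relaxed lists, the nearest TSS and the position, shares of the whole IDR list are not given here. Those counts describe the 11 summits only. Their median rank was 2177, below the median of 1748.5 of the whole list, and 5 were among its 1748 peaks of highest signal. The nuclear receptor core site AGGTCA, the E-boxes CACATG and CAGGTG, the Tinman site TCAAGTG and the Mef2 consensus were found at none of the 11. These motifs were held by 1.83%, 4.15%, 2.86%, 1.54% and 5.29% of all IDR summits.

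**Figure D3:**
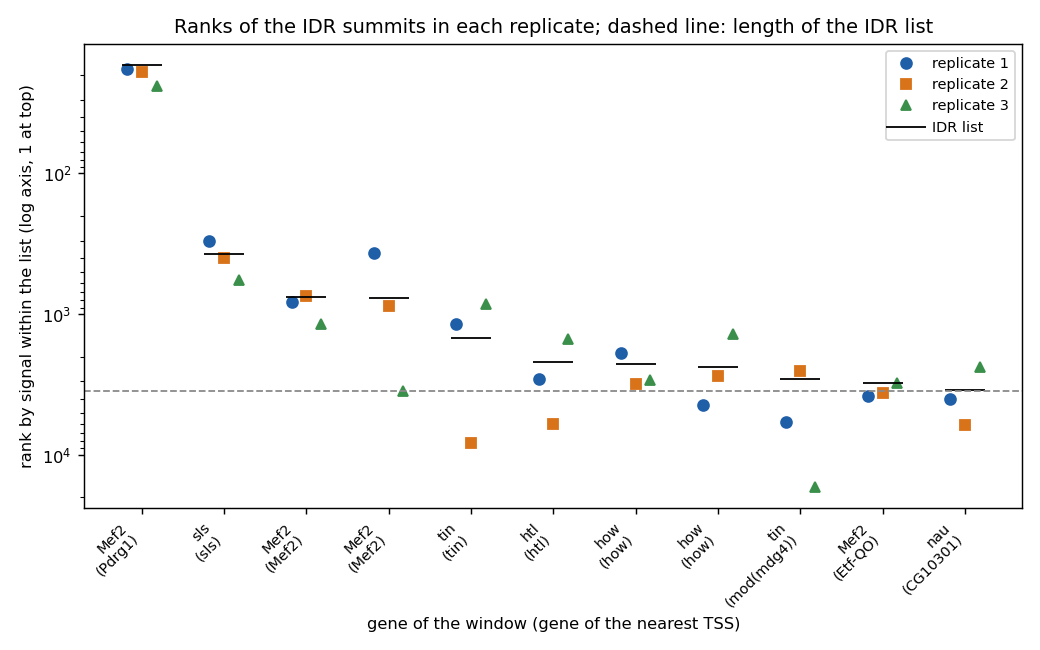
Rank of the 11 IDR summits in each replicate on a log vertical axis with rank 1 at the top, from the strongest peak within 150 bp; bars are ranks in the IDR list, and the horizontal axis names the gene of the window with the gene of the nearest TSS in brackets. The dashed line is at 3496, the end of the top lists, and 4 summits have all 3 symbols above it, while the ranks of the tin promoter summit run from 847 to 8300 and those of the summit at mod(mdg4) from 2531 to 16865.

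Fate factors and structure genes were compared over their joined windows, 177 kb and 118 kb. The IDR list held 7 summits in the former, 0.395 per 10 kb, and 1 in the latter, 0.0847 per 10 kb. The joined windows of htl and how, in neither group, held 3 in 64.9 kb, or 0.462 per 10 kb. In the top lists the fate factors had 0.282, 0.226 and 0.621 summits per 10 kb in replicates 1, 2 and 3 (0.377 ± 0.214, SD, n = 3), and the structure genes had 0.0847 in each. The difference, fate minus structure, was 0.292 ± 0.214 per 10 kb and was positive in 3 of 3 replicates. An exact two-sided sign-flip permutation test over the 3 replicates gave p = 0.25, which is the smallest value that 3 replicates allow. The test asks only whether the difference repeats between replicates over these same windows. It does not measure the spread between genes. In the relaxed lists the densities were 3.33 ± 0.246 and 1.44 ± 0.147 per 10 kb, a difference of 1.89 ± 0.198 that was also positive in 3 of 3 replicates (exact permutation p = 0.25). For htl and how, the top lists of replicates 1, 2 and 3 gave 0.308, 0.308 and 0.616 per 10 kb. Their relaxed lists gave 3.54, 2.16 and 2.77.

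The group values rested on few genes. Mef2 held 4 of the 7 IDR summits of the fate factors, and without it the IDR density was 0.247 per 10 kb and the difference in the top lists 0.107. The single IDR or top-list summit of the structure genes was that of the sls promoter, and Mhc had none. In the relaxed lists the long and sparse sls window set their low value: sls had 0.543 ± 0.134 summits per 10 kb, while Mhc, at 3.83 ± 0.179, was above the fate factors without Mef2, at 2.66 ± 0.371 (SD, n = 3 each). Of the 7 IDR summits of the fate factors, 3 had their nearest TSS at a fate factor, 0.169 per 10 kb. By position, 9 of 59 pooled summits of the fate factors lay in coding exons and 7 of 13 of the structure genes did, beside 18.7% of the whole pooled list. Of the 9, 6 lay in coding exons of other genes in the windows and 3 in those of the fate factors themselves, and 5 of the 7 lay in sls or Mhc. The windows differ in coding content, however. The coding sequence of sls and Mhc was 55.5 and 7.28 kb, in joined windows of 118 kb. That of each fate factor was at most 1.93 kb, in joined windows of 177 kb. The counts in coding exons were not adjusted for this difference.

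**Figure D4:**
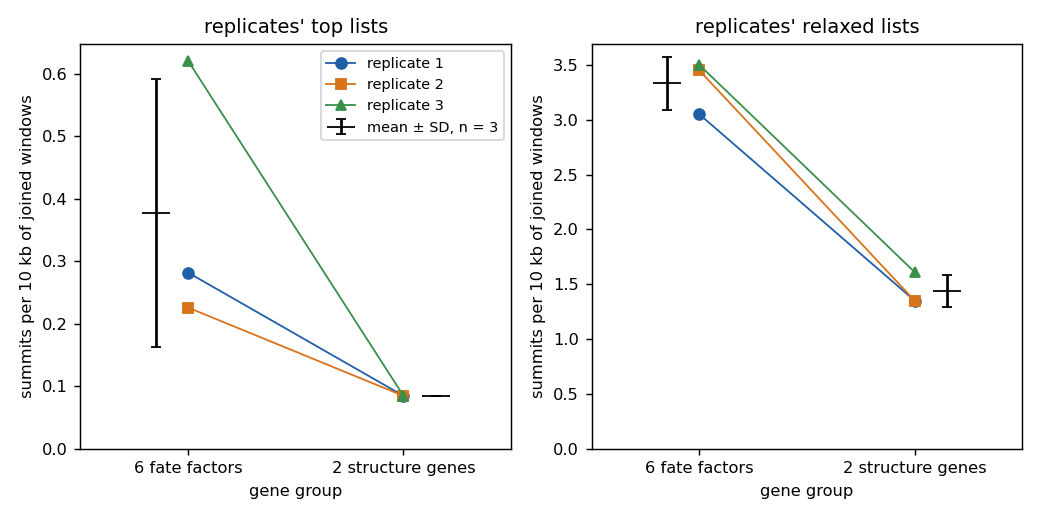
Summits per 10 kb of joined windows for the 6 fate factors and the 2 structure genes, in the top lists on the left and the relaxed lists on the right; lines join the values of 1 replicate and bars are the mean ± SD of 3 replicates. Each line falls from fate to structure, and in the top lists the structure genes are at 0.0847 in every replicate.

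Further genes of the same pathways, 75 in 5 lists, were counted by role. In all, 14 of 75 (18.7%) had an IDR summit at a promoter and 39 (52.0%) in the window, beside the 19.1% and 44.6% of all genes given above. In the top lists 15, 13 and 16 of them had a promoter summit (14.7 ± 1.53, SD, n = 3). Of 24 mesoderm and muscle regulators 2 had a promoter summit. These were the T-box factor gene org-1, with a signal of 185 and rank 753, and the Pax factor gene Poxm, with a signal of 119 and rank 1728. Of the 7 genes of FGF signalling 3 had one: the GTPase gene Ras85D at rank 434, the ETS factor gene pnt at rank 2008 and the phosphatase gene csw at rank 2561. The other genes of that list, pyr, ths, stumps and sty, had no IDR summit at a promoter. The 3 top lists gave 3 of these 7 genes each.

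Of 11 genes of myoblast fusion, 3 had a promoter summit. The summit of mbc, whose product activates Rac, ranked 528 but lay 3 bp from a TSS of Nup98-96. The actin regulators WASp and Vrp1 ranked 1024 and 1034. Of 3 RNA regulators, mbl, a splicing factor of muscle, had one at rank 1311. Of 30 sarcomere and attachment genes 5 had one, close to the share of all genes. The strongest was that of Msp300, a giant nesprin of the muscle nuclear envelope, with a signal of 348 and rank 172, and it ranked 219, 90 and 402 in the replicates. The integrin genes mys and if ranked 664 and 1915, and tmod, which caps actin filaments, ranked 2820. The lists are short, and no test was made of any of these shares.

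**Figure D5:**
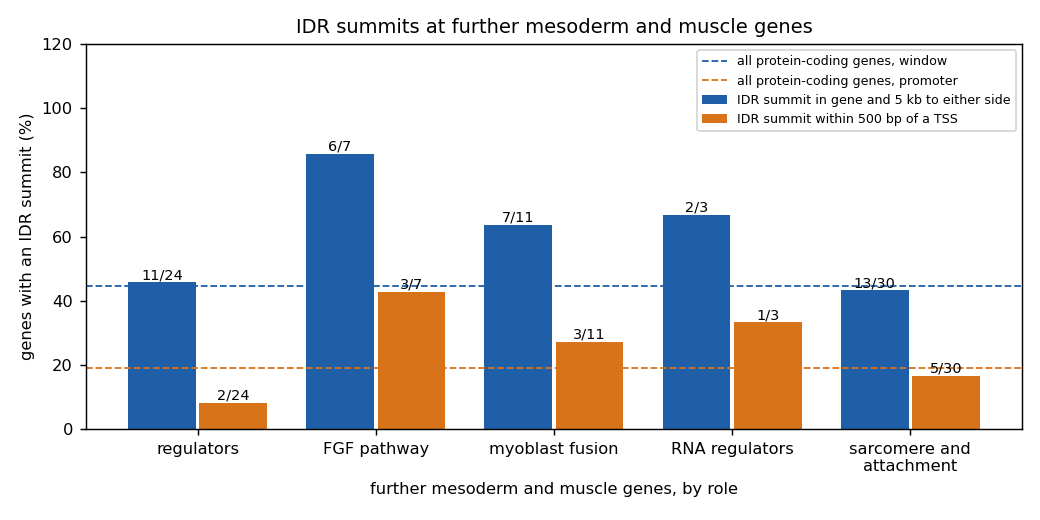
Share of further mesoderm and muscle genes with an IDR summit, in percent, by role on the horizontal axis; blue bars count summits in the gene and 5 kb to either side, orange bars summits within 500 bp of a TSS, and the numbers above are genes with a summit of genes listed. Dashed lines are the shares of all protein-coding genes, 44.6% and 19.1%; regulators at promoters, with 2 of 24, are below theirs and the FGF pathway, with 3 of 7, is above.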

How the data were processed

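Peak lists in dm6 (release 6) were used, and the lists in dm3 were not used here. Per the deposited README text, the authors made a relaxed list from the alignment of each replicate together with 1 further file. The pooled list used all 3 alignments with that file, and the IDR list was derived from the others. For the aligner and peak caller, no source used here gives a name or version. The lists hold a signal value per peak from the authors' caller and a deposited −log10 q value per peak. The files give no read counts, so depth is unknown. The IDR list was exactly the 3496 pooled peaks of highest signal. Genes came from Ensembl release 115 (FlyBase 6.54), and sequence from RefSeq release 6. Densities are summits per 10 kb of window, with overlapping windows joined. A summit matched a replicate within 150 bp, with the rank of the strongest such peak. Motifs were sought within 50 bp of summits on both strands. Every listed gene was named, with its strongest IDR or pooled summit, and at most 4 further genes per role with a promoter summit. Unc-89 was matched through the synonym Obsc. The genes and lists were chosen with earlier results of these data known. Alternatives changed the flank, promoter width, match distance and list length, or left out a replicate. Counting functions were tested on simulated data. Python 3.11.15, numpy 2.4.6, pandas 2.3.3 and matplotlib 3.10.9 were used.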

Additional observations from a re-analysis of the deposited data

How the results depend on the processing

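Of 56 alternatives over 7 results, 23 moved a value beyond its margin, which was 1.5 times for counts and 1 SD between replicates for densities (0 for the structure genes), and 0 reversed a direction. Of the other 33, the 9 of the difference between fate and structure kept only its sign and its side of the test. That side was fixed in advance, because 3 replicates allow no p below 0.25. These 9 therefore show only that the sign was kept, while the size of the difference varied. The 6 genes with an IDR summit in the window became 3 with no flank and 3 with only the 1748 IDR peaks of highest signal. The 4 promoters became 2 with those peaks, 2 at 250 bp and 3 with only the most upstream TSS of each gene. The 11 summits became 4 with no flank, 5 with those peaks and 7 when only summits nearest to the gene's own TSS were kept. The 4 summits in all 3 replicates became 11 with the relaxed lists. The fate factor density of 0.395 per 10 kb became 0.167 with no flank, 0.169 with own-nearest summits, 0.226 with those peaks and 0.602 with twi taken from its short transcripts, and the structure gene density of 0.0847 became 0 with no flank, 0.0942 at 2 kb and 0.0724 at 10 kb. For the counts and densities of IDR summits, leaving out a replicate meant keeping those in the top lists of both others. It gave 3 to 5 genes, 1 to 3 promoters, 5 to 6 summits and fate densities of 0.113 to 0.169. The promoter count was 1 without replicate 3. The difference of 0.292 between fate and structure stayed positive, from 0.107 without Mef2 to 1.89 in the relaxed lists. Leaving out a replicate here meant taking the mean over the top lists of the others, and the difference was then 0.170 to 0.367. With the short twi transcripts it was 0.489. That alternative, the own-nearest one and the one without Mef2 were chosen after seeing the data. The cause of these changes was not tested beyond the smaller windows and shorter lists that make them.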
